A study of Mus musculus with 6 samples.

Results

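The expression of 9 genes around tumour necrosis factor (TNF) was examined in the frontal cortex of GFAP-IL6 mice: Tnf itself, the receptor genes Tnfrsf1a, Tnfrsf1b, Tnfrsf12a, Ltbr and Cd40, the ligand gene Tnfsf10, and the TNF-induced genes Tnfaip2 and Tnfaip3. They were selected by exact gene symbol from the count table, in which each symbol matched 1 of the 33000 genes. The table covered 6 TruSeq mRNA libraries, each from the frontal cortex of a separate mouse at 3 months of age. The GFAP-IL6 group comprised 3 homozygous mice labelled as C57BL/6, in which a transgene under the astrocyte promoter Gfap drives expression of interleukin 6 (IL6), and the wild-type (WT) group comprised 3 C57BL/6 mice. No treatment is named for either group, and both were collected and processed by the same protocol. Because IL6 is produced by astrocytes from a transgene in this model, the comparison does not concern an acute challenge or another source of the cytokine.

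TNF is an inflammatory cytokine that is made mainly by myeloid cells, including microglia in the brain, and signals through TNFR1 (Tnfrsf1a), a broadly expressed receptor with a death domain, and TNFR2 (Tnfrsf1b), a receptor without one that is found mainly on microglia, endothelial cells and immune cells. Engagement of either receptor can activate the transcription factor NF-kB, which induces adhesion molecules, chemokines and feedback inhibitors such as the ubiquitin-editing enzyme A20 (Tnfaip3). IL6 acts through a different pathway, in which gp130 and JAK kinases activate the transcription factor STAT3.

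Promoter sequences are given for 3 of the genes, Tnfrsf1a, Tnfrsf1b and Tnfaip3, whose windows held a match to a STAT-type motif or to the kB consensus, the motifs that were searched. The sequences are from RefSeq on GRCm38.p6 and span 250 bases before to 50 bases after an annotated transcription start, 5′ to 3′ on the strand of the gene. Capitals mark TTCNNNGAA, searched on both strands, in the first 2 sequences and the kB consensus, also searched on both strands, in the last. The windows are chr6:125349473-125349772 on the + strand for Tnfrsf1a, chr4:145246821-145247120 on the - strand for Tnfrsf1b and chr10:19015361-19015660 on the - strand for Tnfaip3.
Tnfrsf1a: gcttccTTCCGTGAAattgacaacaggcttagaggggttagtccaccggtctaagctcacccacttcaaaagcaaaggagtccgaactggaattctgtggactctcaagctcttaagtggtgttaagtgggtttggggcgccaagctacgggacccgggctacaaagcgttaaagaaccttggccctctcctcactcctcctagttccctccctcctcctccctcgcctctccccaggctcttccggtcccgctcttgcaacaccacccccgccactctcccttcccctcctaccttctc
Tnfrsf1b: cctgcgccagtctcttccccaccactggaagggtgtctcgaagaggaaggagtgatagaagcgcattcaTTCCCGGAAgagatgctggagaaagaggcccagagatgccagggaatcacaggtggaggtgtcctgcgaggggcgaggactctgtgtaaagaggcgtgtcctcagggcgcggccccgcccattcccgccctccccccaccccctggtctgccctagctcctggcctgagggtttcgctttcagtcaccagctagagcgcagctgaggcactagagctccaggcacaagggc
Tnfaip3: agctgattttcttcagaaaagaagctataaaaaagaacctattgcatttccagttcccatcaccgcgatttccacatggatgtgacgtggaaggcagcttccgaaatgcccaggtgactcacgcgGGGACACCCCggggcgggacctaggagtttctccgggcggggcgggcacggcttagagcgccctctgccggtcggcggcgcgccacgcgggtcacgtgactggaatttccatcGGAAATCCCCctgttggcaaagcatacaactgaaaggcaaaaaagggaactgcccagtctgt

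The STAT-type match lay 244 to 236 bases before the start in Tnfrsf1a and 181 to 173 bases before it in Tnfrsf1b. In Tnfaip3, the kB matches lay 125 to 116 bases before the start on the strand of the gene and 12 to 3 bases before it on the opposite strand. A window was present for 8 members, 9 windows in all, as Tnfaip3 had 2, and Cd40 had no entry. The STAT-type motif was held by 2 of these 9 windows and by 8.30% of all 32851 promoter windows, and the kB consensus by 1 of 9 windows and by 4.51% of all. The start used for Tnfrsf1a lies downstream of the gene start in GENCODE, so that its window lies within the gene as GENCODE places it. These are matches of letters only, no binding was measured, and the matches were not compared with the changes between genotypes.

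The libraries held 11591066, 16877001 and 16122030 counts in WT mice and 11072008, 7559524 and 8860654 counts in GFAP-IL6 mice, so every GFAP-IL6 library was smaller than every WT library. Il6 was counted 0, 2 and 0 times in WT libraries and 12, 10 and 24 times in GFAP-IL6 libraries, at least 8.22-fold higher against a floor of 3 counts per library, so that this transcript separated the 6 libraries as labelled. Gfap rose from 94.5 ± 24.8 to 678 ± 179 CPM (counts scaled to the library total with TMM factors; mean ± SD, n = 3 per group). Summed markers of choroid plexus reached 610 CPM in WT replicate 3, against 4.18 to 59.2 CPM in the other libraries, and summed markers of striatum reached 285 CPM in WT replicate 2, against 131 to 171 CPM elsewhere. Summed cortical neuron markers were between 5985 and 7367 CPM in all libraries.

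Of the 9 members, the genes of both TNF receptors rose in GFAP-IL6 cortex, each to about double the WT level, while no change was detected in the other members. Tnfrsf1a increased by 1.02 ± 0.14 on the log2 scale (SE) and Tnfrsf1b by 1.03 ± 0.22. Tnf and Cd40 did not pass the filter on low counts, and the other 7 members were tested among 15341 genes with edgeR's quasi-likelihood test and Benjamini-Hochberg adjustment, where a gene was called at an adjusted p under 0.05. The 7 tested members were above the filter level of 0.882 CPM in all 6 libraries. Both called members also narrowly exceeded a log2 fold change of 1, the size required for a differentially expressed gene (DEG). With 1 library left out it ranged from 0.90 to 1.10 for Tnfrsf1a and from 0.81 to 1.23 for Tnfrsf1b, so this size was not always kept. Of all genes tested, 2.86% were called in either direction, 2.65% were called higher in GFAP-IL6 mice, and 1.36% were DEGs that were higher. The 7 tested members all had positive log2 fold changes, with a median of 0.35, compared with -0.00 over all genes tested. In these tissue samples, more cells of a type and more RNA per cell cannot be told apart.

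**Figure D1:**
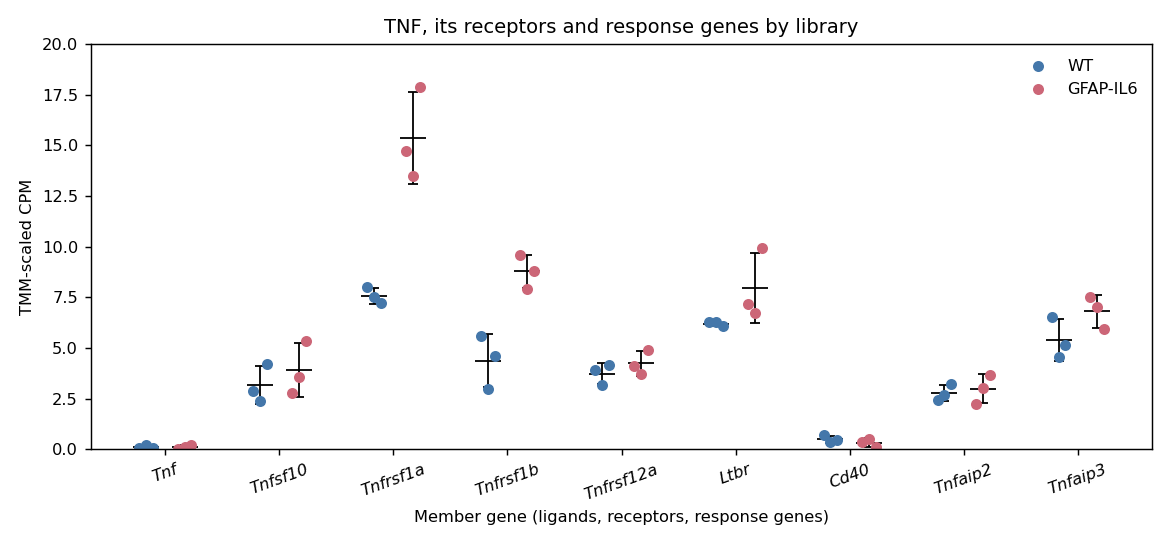
Expression of the 9 members in each library, in TMM-scaled CPM, with WT and GFAP-IL6 libraries as separate points a horizontal bar at the mean of each group and an error bar of 1 SD (n = 3). The GFAP-IL6 points lie above all WT points for Tnfrsf1a (13.5 to 17.9 against 7.22 to 8.01 CPM), Tnfrsf1b and Ltbr, and the points of the groups overlap for the other members.

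Tnf (ENSMUSG00000024401.12, chr17:35199381-35202007, positions on GRCm38 from GENCODE release M21) encodes the cytokine itself. Its counts were 1, 4 and 1 in WT libraries and 0, 1 and 2 in GFAP-IL6 libraries. With 0 to 4 counts per library, the level of Tnf was close to the limit of detection in both genotypes, and a difference was not detectable at this depth. Without the filter, the log2 fold change was -0.29 ± 1.15 (SE; adjusted p = 0.924 by edgeR's quasi-likelihood test), an error that leaves changes of several-fold in either direction within its range.

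Tnfrsf1a (ENSMUSG00000030341.15, chr6:125349362-125362484), the gene of TNFR1, was expressed at 8.01, 7.52 and 7.22 CPM in WT mice and at 14.7, 13.5 and 17.9 CPM in GFAP-IL6 mice. The lowest GFAP-IL6 value was well above the highest WT value. The means were 7.58 ± 0.401 and 15.3 ± 2.27 CPM (SD, n = 3), and the 95% interval of the log2 fold change was 0.71 to 1.33 (adjusted p = 0.00118). These levels rest on 92, 126 and 115 counts in WT libraries and on 164, 102 and 160 counts in GFAP-IL6 libraries. The call was kept when any 1 library was left out, with log2 fold changes between 0.90 and 1.10, including 1.02 without WT replicate 2 and 0.99 without WT replicate 3, the libraries with high striatal and choroid plexus markers.

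Tnfrsf1b (ENSMUSG00000028599.8, chr4:145213463-145246870), the gene of TNFR2, was expressed at 5.57, 2.98 and 4.58 CPM in WT mice and at 9.59, 7.92 and 8.82 CPM in GFAP-IL6 mice. The groups did not overlap, and WT replicate 2 was the lowest library. The means were 4.38 ± 1.31 and 8.78 ± 0.835 CPM (SD, n = 3), and the 95% interval of the log2 fold change was 0.56 to 1.5 (adjusted p = 0.0206). The log2 fold change was 0.81 without WT replicate 2 (adjusted p = 0.0185) and 1.08 without WT replicate 3 (adjusted p = 0.0419). The call for Tnfrsf1b was lost when any 1 GFAP-IL6 library was left out, with adjusted p-values of 0.113, 0.0512 and 0.119 without replicates 1, 2 and 3 and log2 fold changes of 0.96, 1.09 and 1.03.

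The ratio of Tnfrsf1b to Tnfrsf1a was compared within libraries to ask whether the receptors moved by the same amount, using TPM (counts divided by gene length and scaled to the same total in each library). It was 0.393, 0.224 and 0.358 in WT mice and 0.368, 0.332 and 0.279 in GFAP-IL6 mice, so the values of one group lay within the range of the other. On the log2 scale the ratio was -1.66 ± 0.434 in WT mice and -1.62 ± 0.203 in GFAP-IL6 mice (SD, n = 3), a difference of 0.04 (exact two-sided permutation test, p = 0.9, where 0.1 is the smallest p for 3 against 3 libraries). Tnfrsf1a transcripts exceeded Tnfrsf1b transcripts in all 6 libraries, and with 3 mice per group no difference between the receptors could reach a p under 0.05 by this test.

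Ltbr (ENSMUSG00000030339.7, chr6:125306571-125313885) encodes the lymphotoxin beta receptor, which activates the non-canonical branch of NF-kB signalling. Its level was 6.27, 6.26 and 6.09 CPM in WT mice and 7.17, 6.73 and 9.94 CPM in GFAP-IL6 mice. All GFAP-IL6 values lay above all WT values, as they did for 13.8% of all genes tested, and GFAP-IL6 replicate 3 was the highest. The log2 fold change of 0.36 ± 0.18 (95% interval -0.03 to 0.74) did not pass the test (adjusted p = 0.275). Among the 7 tested members, Tnfrsf1a, Tnfrsf1b and Ltbr were separated in this way.

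Tnfrsf12a (ENSMUSG00000023905.12, chr17:23675445-23677468) encodes Fn14, the receptor for the TNF-like cytokine TWEAK. It was measured at 3.92, 3.16 and 4.14 CPM in WT mice and at 4.12, 3.70 and 4.91 CPM in GFAP-IL6 mice, and the groups overlapped. The log2 fold change was 0.19 ± 0.21 (95% interval -0.26 to 0.65, adjusted p = 0.636), and it was 0.58 ± 0.26 when all libraries were thinned to the smallest total (adjusted p = 0.237). Cd40 (ENSMUSG00000017652.14, chr2:165055627-165072948), the receptor for CD40 ligand on antigen-presenting cells, had 8, 6 and 7 counts in WT libraries and 4, 4 and 1 counts in GFAP-IL6 libraries. Relative to depth these Cd40 counts overlapped between groups, and without the filter the log2 fold change was -0.55 ± 0.66 (adjusted p = 0.720 by edgeR's quasi-likelihood test).

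Tnfsf10 (ENSMUSG00000039304.9, chr3:27317028-27342427) encodes TRAIL, a ligand that can trigger apoptosis through death receptors. It was expressed at 2.87, 2.39 and 4.21 CPM in WT mice and at 2.78, 3.57 and 5.36 CPM in GFAP-IL6 mice. The groups overlapped, and replicate 3 was the highest library of both. The log2 fold change was 0.29 ± 0.29 (95% interval -0.34 to 0.92, adjusted p = 0.601), and it was -0.01 without GFAP-IL6 replicate 3.

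Tnfaip3 (ENSMUSG00000019850.9, chr10:19000910-19015657), the gene of A20, was expressed at 6.53, 4.53 and 5.15 CPM in WT mice and at 7.53, 7.0 and 5.92 CPM in GFAP-IL6 mice. WT replicate 1 lay above GFAP-IL6 replicate 3, so the groups overlapped in spite of a higher GFAP-IL6 mean. The log2 fold change was 0.35 ± 0.19 (95% interval -0.06 to 0.77, adjusted p = 0.313). Tnfaip2 (ENSMUSG00000021281.13, chr12:111442469-111455018), a TNF-induced gene whose product takes part in the formation of membrane nanotubes, was at 2.44, 2.68 and 3.20 CPM in WT mice and at 2.24, 3.04 and 3.68 CPM in GFAP-IL6 mice. Its log2 fold change of 0.08 ± 0.25 (95% interval -0.47 to 0.63, adjusted p = 0.884) became -0.10 without GFAP-IL6 replicate 3. The antisense gene Gm40578 overlaps 6.30% of the exon bases of Tnfaip2, and the methods do not state whether counting used strand.

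**Figure D2:**
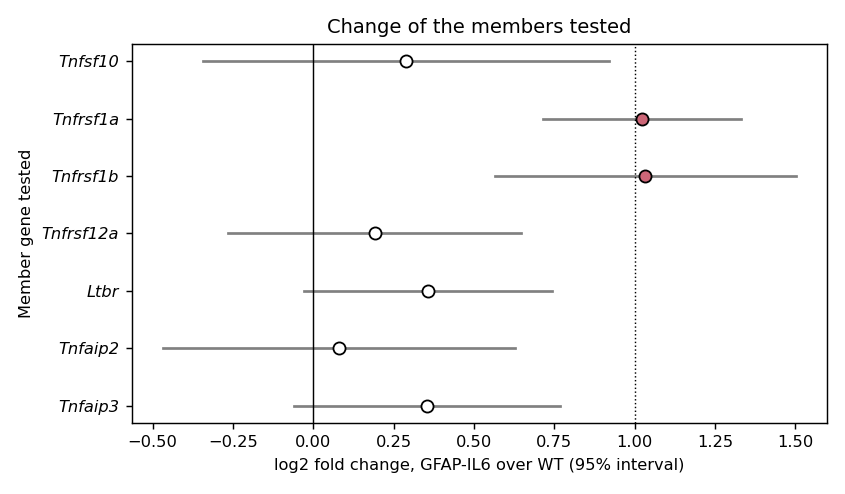
Log2 fold change of the 7 tested members, GFAP-IL6 over WT, with 95% intervals from edgeR's quasi-likelihood fit (n = 3 per group); filled points passed an adjusted p of 0.05, and the dotted line marks the DEG threshold of 1. The intervals of Tnfrsf1a (0.71 to 1.33) and Tnfrsf1b (0.56 to 1.5) lie above 0, and those of the other 5 members include 0.

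Levels were compared between members in TPM. In WT cortex the order of mean levels ran from Tnfrsf12a (10.8 ± 1.71 TPM, SD, n = 3) through Tnfrsf1a (9.77 ± 0.731) and Ltbr (8.18 ± 0.277) to Tnfaip3 (3.28 ± 0.715), Tnfrsf1b (3.20 ± 1.04), Tnfaip2 (2.02 ± 0.276) and Tnfsf10 (1.67 ± 0.509), with Cd40 (0.466 ± 0.179) and Tnf (0.217 ± 0.153) last. The values of neighbours in this order overlapped, except that those of Tnfrsf1a lay above those of Ltbr, those of Ltbr above those of Tnfaip3, and those of Tnfsf10 above those of Cd40. All were of low abundance: the median WT level over all genes tested was 20.7 TPM, and 31.5% of genes tested had a lower WT level than Tnfrsf1a and 13.7% a lower one than Tnfrsf1b.

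In GFAP-IL6 cortex Tnfrsf1a was the most abundant member, at 20.7 ± 3.04 TPM (SD, n = 3), and its values lay above those of Tnfrsf12a (12.8 ± 1.86). Ltbr followed at 11 ± 2.37 TPM and overlapped with Tnfrsf12a. Tnfrsf1b, at 6.71 ± 0.700 TPM, lay above Tnfaip3 (4.33 ± 0.550) in all libraries, whereas the values of this pair overlapped in WT cortex. Tnfaip2 (2.28 ± 0.537) and Tnfsf10 (2.16 ± 0.720) overlapped with each other, as did Cd40 (0.325 ± 0.203) and Tnf (0.210 ± 0.199).

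Summed markers of microglia and of endothelial cells were also higher in GFAP-IL6 cortex, whereas no marker of the other cell types examined was called. Summed over 8 microglial markers, the level was 371 to 462 CPM in WT mice and 704 to 814 CPM in GFAP-IL6 mice, and 7 of the 8 were called higher, with P2ry12 as the exception. Summed over 7 endothelial markers it was 165 to 183 CPM and 252 to 287 CPM, with 4 of 7 called. No marker was called among 3 of perivascular macrophages (5.78 to 8.89 against 6.54 to 10.8 CPM in sum), 5 of astrocytes (1752 to 2171 against 1811 to 2155 CPM), 7 of cortical neurons, 5 of oligodendrocytes (3003 to 5547 against 3036 to 4734 CPM), 6 of striatum or 5 of choroid plexus. The 13 markers of infiltrating leukocytes summed to 1.31 to 4.06 CPM in WT mice and 3.30 to 3.76 CPM in GFAP-IL6 mice, with 1 of them, Cd4, tested and 0 called. These sums overlapped between the groups, and the log2 fold change of Cd4 was -0.51 (adjusted p = 0.562 by edgeR's quasi-likelihood test). Cd4 was then left out, after the values were seen. The other 12 leukocyte markers summed to 0.523, 1.43 and 0.879 CPM in WT mice and to 2.24, 1.72 and 3.24 CPM in GFAP-IL6 mice. Only without Cd4 did the groups not overlap. Of the 13, Ccr2, Cd3e, Cd8a and Nkg7 had higher CPM in each GFAP-IL6 library than in any WT library, as did 13.8% of all genes tested. None of these markers was tested, so that share comes from genes with more counts and is not a like background. The marker values rest on few counts: Cd3e had 0 counts in WT libraries and 3, 1 and 2 in GFAP-IL6 libraries, Ccr2 had 2, 11 and 8 against 14, 5 and 13, and Cd3d had 0 in all 6.

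Set against these sums, Tnfrsf1a amounted to 18.1 ± 3.00 CPM per 1000 CPM of microglial markers in WT mice and 20.5 ± 1.41 in GFAP-IL6 mice (SD, n = 3), and Tnfrsf1b to 10.7 ± 4.29 and 11.8 ± 1.37. Per 1000 CPM of endothelial markers, Tnfrsf1a amounted to 43.7 ± 3.77 and 57.6 ± 5.03, and Tnfrsf1b to 25.1 ± 7.01 and 33.2 ± 4.2. Per microglial marker, the values of WT and GFAP-IL6 libraries overlapped for both receptors, and per endothelial marker they overlapped for Tnfrsf1b but not for Tnfrsf1a. The part of these cell types in the receptor changes was not tested.

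**Figure D3:**
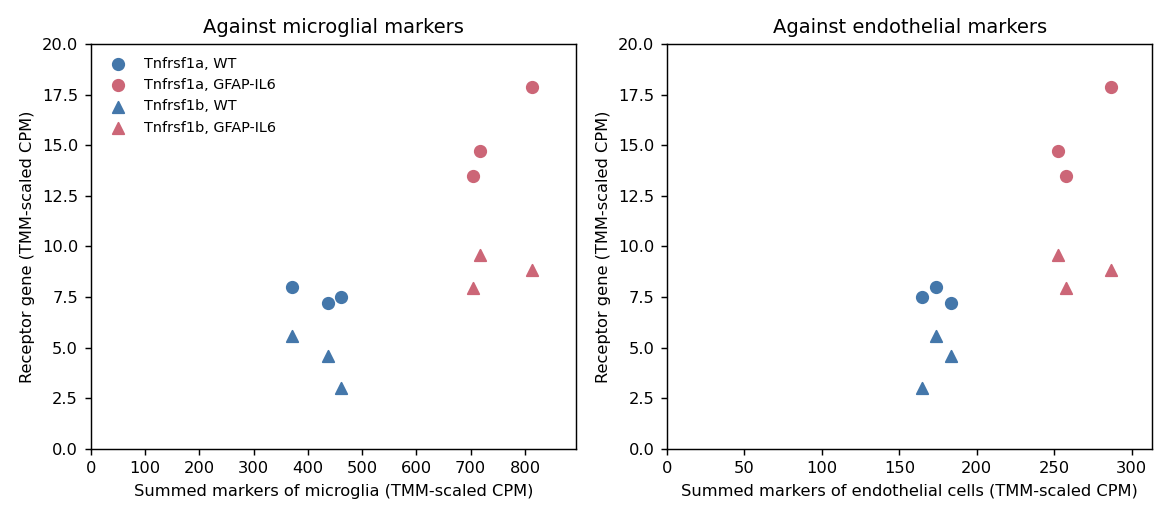
Expression of Tnfrsf1a and Tnfrsf1b in each library (TMM-scaled CPM) against the summed CPM of microglial and of endothelial markers, with a point per library (n = 3 per group). GFAP-IL6 libraries have both the higher receptor levels and the higher marker sums (microglia, 704 to 814 against 371 to 462 CPM), and the points of the groups are separated on both axes.

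Other genes of the TNF superfamily and its pathway were grouped into 4 lists with 102 genes, of which 68 were tested and 34 had too few counts. Of the 68, 11 were called, all higher in GFAP-IL6 mice, where 2.65% of all genes tested were called higher. For 4 of the 11, Tnfsf8, Tnfrsf9, C3 and Bcl3, no WT library reached the filter level of 0.882 CPM. These entered the test through the GFAP-IL6 libraries alone, so that a difference was part of their selection. They are described by their counts and fold changes, with no standard error and no p. Tnfrsf4 also entered in this way and was not called. The other 7 called genes were among 63 genes with WT libraries at that level. Among 16 other ligand genes, 3 were tested and Tnfsf8, the gene of CD30 ligand, was called. No WT library held a count of Tnfsf8, and GFAP-IL6 libraries held 16, 11 and 27, at least 9.55-fold higher against a floor of 3 counts per library. The median log2 fold change of the 3 genes was 0.28, also with Tnfsf8 set at its bound.

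Among 23 other receptor genes, 14 were tested, 3 were called higher and none lower, with a median log2 fold change of 0.38 and 10 positive and 4 negative values. The GFAP-IL6 values all exceeded the WT values for 6 of the 14, against 13.8% of all genes tested. These 6 include Tnfrsf9 and Tnfrsf4, which passed the filter through the GFAP-IL6 libraries alone, so that a difference was part of their selection. Tnfrsf9 is also among the 3 called. Tnfrsf9 encodes 4-1BB, a costimulatory receptor of T cells, and had 4, 14 and 3 counts in WT libraries and 21, 22 and 37 counts in GFAP-IL6 libraries (log2 fold change 2.61). Tnfrsf25, the gene of the death receptor DR3, was at 4.36, 3.70 and 5.78 CPM in WT mice and at 12.5, 7.53 and 10.6 CPM in GFAP-IL6 mice (1.16 ± 0.22, adjusted p = 0.0107). Tnfrsf13b, the gene of TACI, a receptor best known from B cells, was at 1.22, 1.13 and 1.82 CPM against 3.41, 2.51 and 4.35 CPM (1.29 ± 0.29, adjusted p = 0.0326). None of the 3 was called without GFAP-IL6 replicate 3 (adjusted p = 0.0849 for Tnfrsf25 and 0.225 for Tnfrsf13b), and Tnfrsf25 (0.0810) and Tnfrsf13b (0.113) were not called without GFAP-IL6 replicate 1 either, nor was Tnfrsf13b without WT replicate 2 (0.0604). Tnfrsf9 and Tnfrsf13b are best known from T and B cells. The summed leukocyte markers moved in the same direction when Cd4 was left out, whereas the sums of the full list overlapped between groups, as given above. The part of leukocytes in these counts was not tested.

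The ligand genes of the called receptors had few counts. Tnfsf9, which binds 4-1BB, had 4, 2 and 9 counts in WT libraries and 4, 4 and 1 in GFAP-IL6 libraries, and Tnfsf15, which binds DR3, had 0 counts in all 6, which allows a level of up to 0.0416 CPM over the pooled libraries. The TACI ligand genes Tnfsf13 and Tnfsf13b had 5 to 12 and 4 to 11 counts per library. Genes on the same strand share 60.05% of the exon bases of Tnfsf13 and 48.3% of those of Tnfsf12, and reads there may not have been assigned, so that the counts of Tnfsf12 and Tnfsf13 are uncertain. Lta, whose product also binds both TNF receptors, had 3, 6 and 3 counts against 1, 1 and 2, and Ltb, a ligand gene of the lymphotoxin beta receptor, had 2 to 4 counts per library. Conversely, Tnfrsf8, the receptor gene for CD30 ligand, had a log2 fold change of 0.37 (adjusted p = 0.478), and Tnfsf12, the gene of TWEAK, one of 0.28 (adjusted p = 0.573). The gene of the CD40 ligand, Cd40lg, had 0 counts in all libraries.

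Of 32 genes of receptor-proximal signalling, 28 were tested and Cflar was called, a share of 3.57%, near the 2.65% called higher over all genes tested. Cflar encodes c-FLIP, an inhibitor of caspase 8 at death receptors, and rose from 12.7, 16.0 and 16.6 CPM to 22.9, 23.1 and 25.6 CPM (log2 fold change 0.65 ± 0.12, adjusted p = 0.00973). It was not called without GFAP-IL6 replicate 3 (adjusted p = 0.0857). The list had a median log2 fold change of 0.12, with 24 positive and 4 negative values, and the GFAP-IL6 values all exceeded the WT values for 10 of the 28 genes, against 13.8% of all genes tested.

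Of 31 other TNF response genes, 23 were tested and 6 were called higher, with a median log2 fold change of 0.41. The GFAP-IL6 values all exceeded the WT values for 13 of the 23, against 13.8% of all genes tested, and all lay below them for 1. C3 and Bcl3 are among the 13 and among the 6 called. Both passed the filter through the GFAP-IL6 libraries alone, so that a difference was part of their selection. C3, the central complement component, had 0, 5 and 2 counts in WT libraries and 50, 25 and 71 counts in GFAP-IL6 libraries (log2 fold change 4.97). Icam1, an adhesion molecule for leukocytes, rose from 2.44, 2.74 and 2.76 CPM to 6.27, 5.15 and 7.37 CPM (log2 fold change 1.24 ± 0.20, adjusted p = 0.00442). Bcl3, an atypical IkB protein, had 4, 0 and 8 counts against 26, 17 and 30 (log2 fold change 3.23), and the AP-1 subunit gene Junb rose from 28.3, 14.3 and 19.1 CPM to 46.7, 42.7 and 34.9 CPM (1.03 ± 0.19, adjusted p = 0.0108).

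The remaining called response genes were Csf1, the gene of a growth factor for microglia and macrophages (0.47, adjusted p = 0.0319), and Tnfaip8l2 (0.93, adjusted p = 0.0319). Without GFAP-IL6 replicate 3, 3 response genes were called, and Bcl3 was not among them. Junb was lost without GFAP-IL6 replicate 1 (0.0678) or replicate 2 (0.0521). Csf1 was lost without WT replicate 3 (0.0805), GFAP-IL6 replicate 1 (0.159) or GFAP-IL6 replicate 3 (0.175). Tnfaip8l2 was kept only without WT replicate 1 (0.0284), and its adjusted p was between 0.0516 and 0.178 without any other library. C3 and Bcl3 are also induced by IL6 signalling, so that the list is not specific to TNF, and the part of either cytokine was not tested. Nfkbia, the feedback inhibitor of NF-kB, was not called (log2 fold change 0.15, adjusted p = 0.491). Antisense or neighbouring genes overlap 11.7% of the exon bases of Icam1, 7.52% of Junb and 6.51% of Bcl3.

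**Figure D4:**
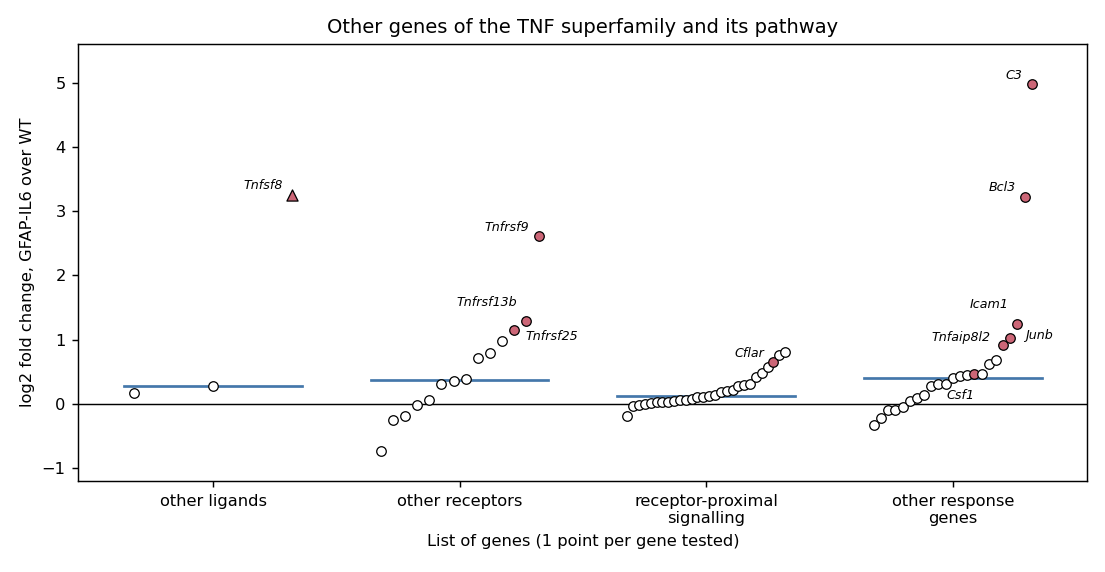
Log2 fold change, GFAP-IL6 over WT, of each tested gene of the 4 other TNF pathway lists, with a line at the median of each list; filled points passed an adjusted p of 0.05, and the triangle shows Tnfsf8 at its lower bound. Tnfsf8, Tnfrsf9, Tnfrsf4, C3 and Bcl3 passed the filter through the GFAP-IL6 libraries alone. The 11 called genes all lie above 0, and the medians are 0.28, 0.38, 0.12 and 0.41.

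For the called receptors, the genes outside the 9 members whose levels were most alike over the 6 libraries were taken by Pearson's r of log2(CPM + 1), as a description over libraries that share the genotype difference. For Tnfrsf1a these were Hmha1 (r = 0.998), Plod3 (0.997), a collagen lysyl hydroxylase, and B3gnt3 (0.997), a glycosyltransferase. For Tnfrsf1b they were Ciz1 (0.996), Ago1 (0.996) and D930015E06Rik (0.995). The first 3 were called higher in GFAP-IL6 mice, with log2 fold changes of 1.03, 0.37 and 1.75, and the last 3 were not called (0.36, 0.19 and 0.32, with adjusted p-values of 0.0521, 0.210 and 0.135).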

How the data were processed

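RNA sequencing counts of frontal cortex from 3 GFAP-IL6 and 3 WT mice were analysed, grouped by sample title. According to the methods and processing notes, the authors aligned TruSeq reads with STAR 2.4 to mm10 and deposited counts per GENCODE gene from featureCounts, without normalization. The processing notes name hg19, but all 33000 identifiers are those of mouse genes. The strand setting of counting is not given in the sources used here. A deposited gene length was used for TPM.

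The quasi-likelihood F-test of edgeR 4.0.16 (R 4.3.3) was applied to the counts with TMM scaling and genotype as the only term. Genes were filtered with filterByExpr, and p-values of the 15341 genes kept were adjusted by the Benjamini-Hochberg method. DEGs also needed an absolute log2 fold change over 1, as in the study. Standard errors were derived from the F statistic, and intervals are 95% intervals. The script was tested on simulated data. The authors used DESeq2, which was run as an alternative (version 1.42.0) beside RLE scaling, no filter, a replicate block, libraries thinned to the smallest total and each library left out.

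The 9 members and all lists were chosen with earlier results of these data known, so no test over a list was made. The genes named were the members, Il6 and Gfap, up to 4 called genes of each pathway list with the smallest adjusted p, called genes at 3 counts or fewer in every library of a group, and the 3 genes most like each called member. Further list genes were named after their values were seen: P2ry12, Cd3d, Cd3e, Cd4, Cd8a, Nkg7 and Ccr2 among the markers, ligands and receptors that pair with a called or member gene, Tnfrsf4, Csf1, Tnfaip8l2, Nfkbia, Map3k14, Sele, Selp and Lcn2. The floor of 3 counts corresponded to 0.178 to 0.397 CPM, and floors cover counting error only. No library pair was the same within sampling noise (chi-square per degree of freedom between 2.23 and 20.1 for 15 pairs). Positions are from GENCODE release M21, which held 32593 of the identifiers.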

Additional observations from a re-analysis of the deposited data

How the results depend on the processing

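Both receptor calls were kept under RLE scaling, without the filter, with DESeq2, with the replicate block and after thinning, and leaving out 1 library gave 1 to 2 called members. Of 77 values of members under the alternatives, 72 kept their direction and side of the adjusted p threshold, 3 lost a call (Tnfrsf1b without each GFAP-IL6 library) and 2 changed sign. These were Tnfaip2 and Tnfsf10 without GFAP-IL6 replicate 3, where the range with 1 library left out was -0.10 to 0.27 and -0.013 to 0.57, and the cause was not tested. The log2 difference in the ratio of Tnfrsf1b to Tnfrsf1a changed sign without WT replicate 2 (-0.21, exact permutation p = 0.4) and without GFAP-IL6 replicate 1 (-0.05, p = 1), and ranged from -0.21 to 0.19 over the libraries left out.

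Over all genes, 439 were called, compared with 1154 without the filter, 750 with the replicate block and 187 to 1061 with 1 library left out (1061 without WT replicate 1, 282 without GFAP-IL6 replicate 2 and 187 without GFAP-IL6 replicate 3). Without the filter, 2 signalling genes (Map3k14 added) and 11 response genes were called. Leaving out 1 library gave 0 to 3 called receptor genes, 0 to 2 signalling genes, 3 to 8 response genes and 1 ligand gene. Csf1 and Tnfaip8l2 were not called with DESeq2 (adjusted p = 0.0536 and 0.0776) or after thinning, nor was Tnfrsf13b after thinning (0.0746). Without any filter, Tnf and Cd40 remained uncalled.

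Replicate numbers were not taken to pair the mice, since the correlations of same-numbered libraries' deviations were 0.0192 to 0.123 and those of other pairs -0.0985 to 0.0514; with the block, Tnfrsf1a had an adjusted p of 0.00194 and Tnfrsf1b of 0.00908. Depth limits Tnf and Cd40, and thinning to 7559524 counts per library gave a log2 fold change of 0.90 for Tnfrsf1a.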

Other observations

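Of the response genes that were not tested because of low counts, 3 were called by edgeR's quasi-likelihood test without the filter: Lcn2, which encodes the secreted acute-phase protein lipocalin 2, and the endothelial selectin genes Sele and Selp, whose products tether leukocytes to the vessel wall. Lcn2 had 0, 1 and 0 counts in WT libraries and 1, 21 and 15 counts in GFAP-IL6 libraries, at least 7.33-fold higher against a floor of 3 counts per library, although GFAP-IL6 replicate 1 held a single count, as WT replicate 2 did. Sele had 1 count in each WT library and 6, 12 and 13 counts in GFAP-IL6 libraries, at least 5.78-fold higher against a floor of 3 counts per library. Selp was not counted in any WT library, and it had 4, 2 and 7 counts in GFAP-IL6 libraries. By the group mean Selp was at least 2.27-fold higher against this floor, although GFAP-IL6 replicate 2 itself lay below 3 counts. All 3 genes had 3 counts or fewer in every WT library, so they are described by their counts, with no p. Selp entered the fit without the filter through the GFAP-IL6 libraries alone, so that a difference was part of its selection. That fit called 1154 of all genes, against 439 with the filter. With DESeq2, which was also run without this filter, Sele was called, and Lcn2 and Selp were not. Its default settings were used, which can leave a gene of low counts without an adjusted p, so a gene not called there may not have been judged. Antisense genes overlap 14.1% of the exon bases of Selp. These genes were singled out after their values were seen. Endothelial markers were higher in the same libraries (252 to 287 against 165 to 183 CPM in sum), and their part in the selectin counts was not tested.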
